A study of Mus musculus with 6 samples.

Results

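The genes described here are the secreted and membrane-bound signals that steer growing axons and vessels, together with their receptors: ephrins and Eph receptors, semaphorins with plexins and neuropilins, Slits with Robos, and netrins with Unc5 receptors. They were found by the start of their symbols among the 15197 genes of the deposited comparison and linked by Ensembl gene ID to the raw counts. This gave 61 genes of 15197 tested and of 49671 in the count table. One of them, Unc50, is matched through its name only, is no Unc5 receptor and did not differ between the groups (log2 fold change -0.13 ± 0.10 SE, adjusted p = 0.308). It is left out of the counts below, which cover 60 genes, 33 ligands and 27 receptors.

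Pancreatic stellate cells (PSCs) are fibroblasts that reside in the pancreas. Primary PSCs came from wild type C57BL6/J mice and were kept for 120 h on plastic dishes in DMEM/Ham F12 with serum. One group was kept at an extracellular pH (pHe) of 6.6 and the other at pHe7.4, set by the amount of sodium bicarbonate, with 3 biological replicates (A, B and C) each, which makes 6 libraries. Both groups share strain, genotype, base medium and culture time, and neither age nor sex of the animals is given in the labels. The amount of bicarbonate differs between the groups along with pHe, and their parts cannot be told apart in this design. The cells were cultured on rigid plastic outside the tissue, so the comparison concerns pHe under that condition only. The labels do not say whether a letter marks cells of the same mouse in both groups, and p-values measure the spread between these cultures.

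Ephrins are bound to the cell surface and signal to Eph receptor tyrosine kinases on the neighbouring cell, with signals running both ways. Class 3 semaphorins are secreted and act through a neuropilin, which binds the ligand, and a class A plexin, which signals, whereas most membrane-bound semaphorins bind plexins directly. Slits are secreted ligands of Robo receptors, and netrins are laminin-related secreted proteins that bind Dcc, neogenin and the Unc5 receptors. Outside the nervous system these families act in vessel growth, in tissue boundaries and in the adhesion and migration of fibroblasts and epithelial cells.

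Values per library are counts normalized by TMM and scaled to library size (CPM). Fold changes are log2 of pHe7.4 over pHe6.6 and are negative where the level was higher at pHe6.6. They were tested with edgeR's quasi-likelihood test. The Benjamini-Hochberg adjustment covered all 15197 genes, and a gene is said to have changed at an adjusted p under 0.05. Libraries held 28904761 to 38331877 counts, which makes a single count worth 0.0252 to 0.0339 CPM and puts the limit that a count of 0 allows at 0.0756 to 0.102 CPM (3 counts, counting error only). Levels of different genes are compared per length, as CPM per kilobase of exon (RPKM).

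The stellate cell and fibroblast genes Vim (1202 to 1447 CPM) and Pdgfrb (577 to 1130 CPM) were high in every library, while Gfap, also used to mark these cells, reached at most 0.378 CPM. Of 13 such genes tested, 6 were higher at pHe6.6, among them Pdgfrb (log2 fold change -0.65 ± 0.12 SE, adjusted p = 0.00281 by edgeR), Pdgfra, Dcn, Lum, Thy1 and Des, against Col1a1 and Rgs5 at pHe7.4. Markers of other cells moved with the groups as well. As background for all of these marker counts, edgeR called 26.4% of the 15197 genes towards pHe6.6 and 25.9% towards pHe7.4. Of 16 mesothelial genes, 10 were higher at pHe7.4 against 2 at pHe6.6. All 16 summed to 2799 to 2917 CPM at pHe6.6 and to 2529 to 2812 CPM at pHe7.4. Aldh1a2, which outweighs the others, was itself higher at pHe6.6 (log2 fold change -1.18 ± 0.13 SE, adjusted p = 0.000276 by edgeR). Without Aldh1a2, the others summed to 278, 696 and 574 CPM in pHe6.6 replicates A, B and C and to 1603 to 1709 CPM at pHe7.4. Of 12 acinar, ductal and islet genes none passed edgeR's test, while 4 were higher at pHe7.4 at an unadjusted p under 0.05 or with DESeq2 and 5 with limma-voom, with sums of 45.6, 212 and 119 CPM at pHe6.6 and of 260 to 470 CPM at pHe7.4. Of 11 endothelial genes tested, 9 were higher at pHe7.4 against 1 at pHe6.6 (sums of 22.2 to 30.0 and 39.9 to 56.9 CPM). Of 12 macrophage genes, 1 was higher at pHe7.4 against 4 at pHe6.6 (sums of 586 to 1094 CPM at pHe6.6 and of 548 to 835 CPM at pHe7.4). The 4 B cell genes summed to 8.92 CPM in pHe6.6 replicate C and to at most 0.177 CPM in the other libraries. The neuronal genes Elavl3 and Rbfox3 reached no more than 0.0861 CPM, and the glial gene Sox10 no more than 0.177 CPM. Others of these lists were higher, such as Tubb3 (16.8 to 45.8 CPM) and Mbp (16.0 to 52.5 CPM). The 10 neuronal genes summed to 17.8 to 23.1 CPM at pHe6.6 and to 45.3 to 52.2 CPM at pHe7.4. The 10 Schwann cell and glial genes summed to 22.2 to 50.6 CPM at pHe6.6 and to 60.2 to 74.2 CPM at pHe7.4. Among 4 neuronal genes tested, Tubb3, Prph and Gap43 were higher at pHe7.4, as was Ngfr of the Schwann cell and glial genes. Prph and Gap43 also met the filter through pHe7.4 alone and could only be called in that direction. In bulk RNA, fewer cells of a type and less RNA per cell cannot be told apart. pHe6.6 replicate A had the lowest level of its group in 19 of the 23 guidance genes higher at pHe7.4 (82.6%), against 49.9% of all 3939 genes higher at pHe7.4, and the results that rest on low values in this library are therefore also given without it. The part of the other cells in the results below was not tested.

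Of the 60 guidance genes, 40 changed (66.7%), against 52.3% of all genes tested. A rise towards pHe7.4 was found for 23 (25.9% of all genes tested) and towards pHe6.6 for 17 (26.4% of all genes tested). Changes over 1 on the log2 scale were unevenly spread over the directions, with 19 genes higher at pHe7.4, where the share among all genes was 8.98%, and 5 higher at pHe6.6, where it was 7.99%. Differences over 0.58 in either direction were found for 31 genes, beside 29.8% of all genes tested. The median log2 fold change was 0.26, beside 0.011 over all genes. This median depended on the level of the genes. For the 12 genes with a mean under 5 CPM it was 1.55, with 8 rises towards pHe7.4 against 1 towards pHe6.6. These 12 include Ephb1, Efnb3, Sema4f and the uncalled Robo3, which met the filter on low counts through pHe7.4 alone. The lean of the 12 genes was thus in part set by the filter, and no share of all genes at that level is given beside it. For the other 48 genes the median was -0.0023, and 15 rose towards pHe7.4 against 16 towards pHe6.6. Changes over 1 on the log2 scale stayed uneven among these 48 genes, with 11 towards pHe7.4 against 4. Levels of the groups did not overlap in 45 of the 60 genes, and in 63.2% of all genes tested. Receptors (12 higher at pHe7.4 against 6 at pHe6.6) leaned to pHe7.4, whereas ligands were split evenly (11 and 11). Of the genes higher at pHe7.4, Ephb1, Efnb3 and Sema4f stayed under 0.5 CPM in all pHe6.6 libraries and met the filter on low counts through pHe7.4 alone, so they could only be called in that direction, whereas 0 genes met it through pHe6.6 alone. The plot of fold changes by family shows these differences gene by gene.

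**Figure D1:**
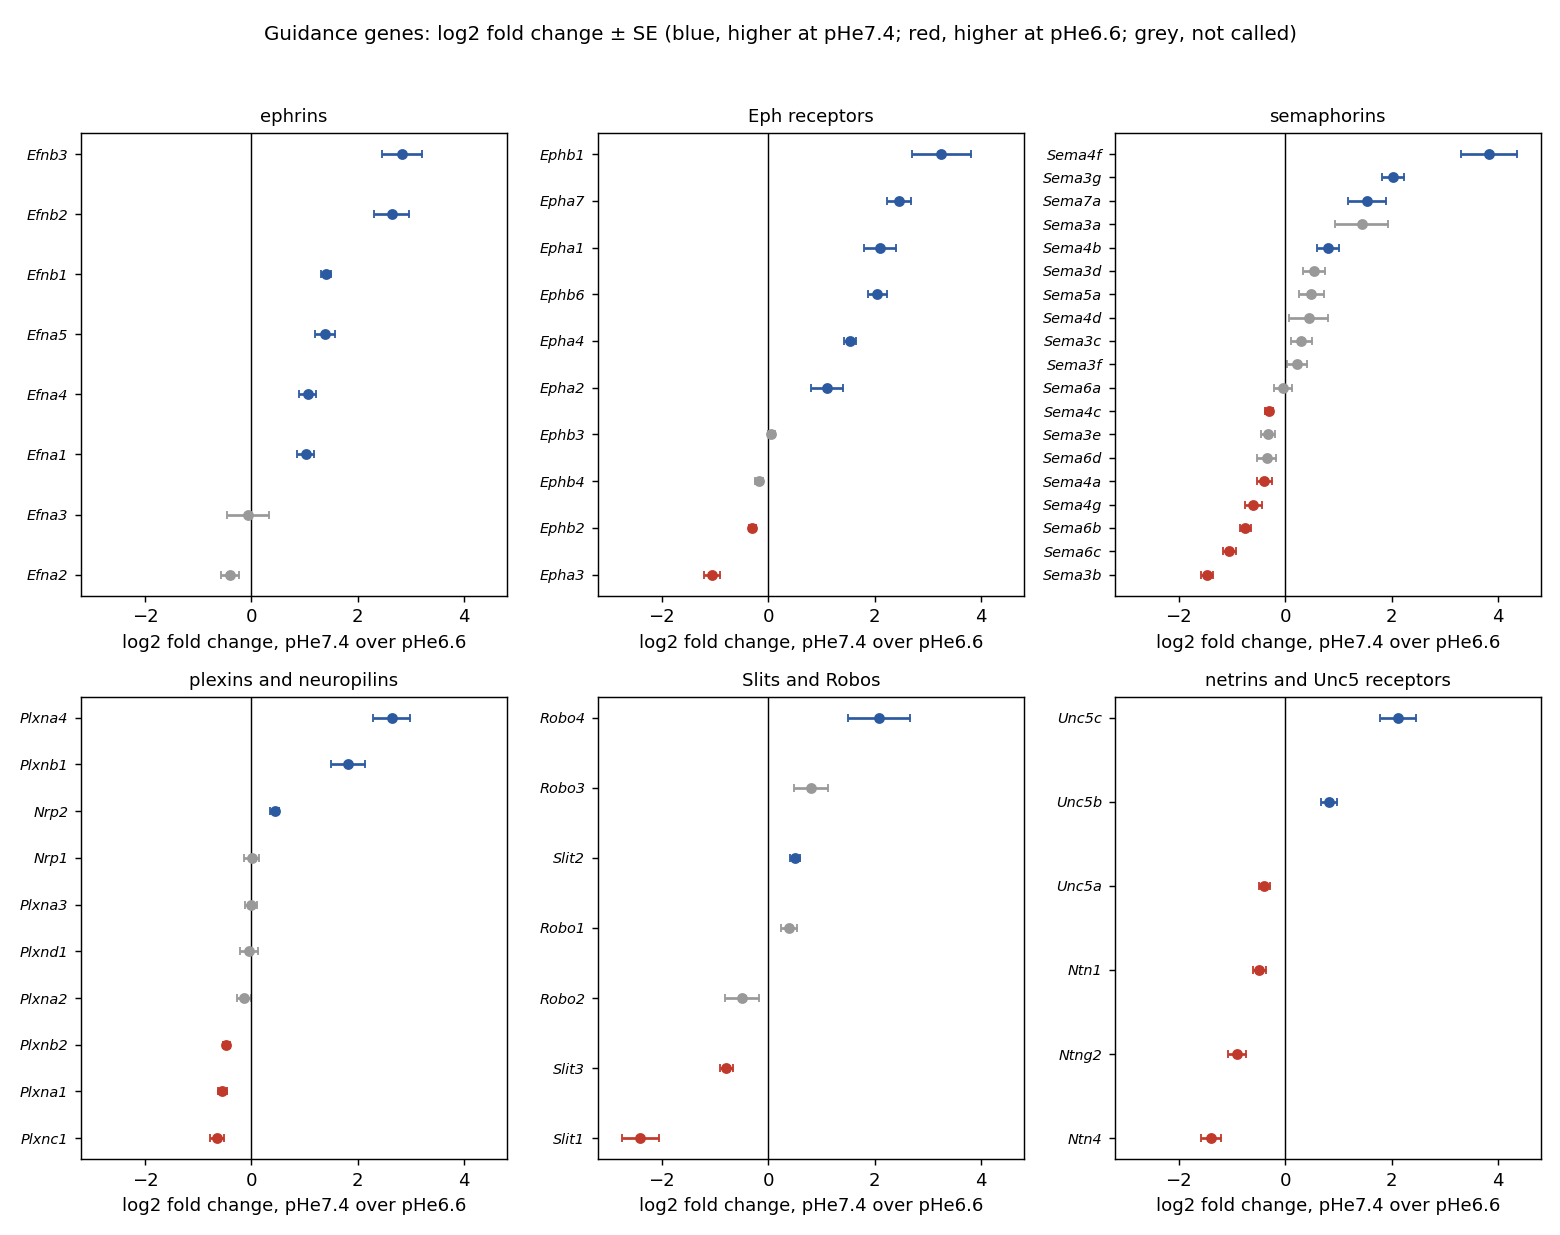
Log2 fold change (pHe7.4 over pHe6.6, x axis) of the 60 guidance genes in 6 families, with bars for the standard error of edgeR's fit over 3 libraries per group. Ephrins and Eph receptors lie mostly to the right (12 of 18 higher at pHe7.4), the 3 netrins lie to the left, and semaphorins lie on both sides. Efnb3, Ephb1 and Sema4f could only be called towards pHe7.4.

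The ephrins were the family with the most uniform direction. Of 8 ephrins, 6 were higher at pHe7.4, none was called higher at pHe6.6 by edgeR, DESeq2 or limma-voom (1 at an unadjusted p under 0.05 by edgeR, Efna2) and 2 did not pass the test, with a median log2 fold change of 1.23. Over all genes tested, 25.9% were higher at pHe7.4. Efnb3 is among the 6 and could only be called in that direction, as given above. Both ephrin classes took part. Ephrin-B genes encode transmembrane ligands, mainly of EphB receptors and EphA4. Efnb2 (chr8:8617434-8661242), a marker of arterial endothelium that fibroblasts and other mesenchymal cells also express, had 10.2, 26.1 and 19.0 CPM in pHe6.6 replicates A, B and C and 106, 130 and 110 CPM in pHe7.4 replicates A, B and C. The groups were far apart, with the lowest level in pHe6.6 replicate A (log2 fold change 2.64 ± 0.33 SE, 6.23-fold, adjusted p = 0.00130, and 2.35 without pHe6.6 replicate A, adjusted p = 0.000117). Efnb1 (chrX:99136130-99148991), the ephrin with the most counts, had 49.5, 60.2 and 49.9 CPM at pHe6.6 and 134, 155 and 134 CPM at pHe7.4 in the same order of replicates. Replicates lay close together within each group and the groups did not overlap (1.40 ± 0.10, adjusted p = 4.43e-05). Efnb3 was near the detection limit at pHe6.6, with 0.170, 0.201 and 0.301 CPM, and had 1.08, 1.91 and 1.89 CPM at pHe7.4. It was higher in each pHe7.4 library than in any pHe6.6 library (2.83 ± 0.37, adjusted p = 0.000659). Summed per length over the class, ephrin-B came to 18.2 ± 2.8 RPKM (mean ± SD, n = 3) at pHe6.6 and to 58.2 ± 5.5 RPKM at pHe7.4. Efnb1 held 81.9 to 90.3% of the class sum at pHe6.6 and 69.8 to 71.0% at pHe7.4, the rest being almost all Efnb2.

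The promoter windows of the 2 abundant ephrin-B genes are shown because these genes rose together. Each runs from 250 bases before to 50 bases after the start of the gene, from RefSeq on GRCm38.p6, printed 5′ to 3′ on the gene's strand, with chrX:99135811-99136110 (plus strand) for Efnb1 and chr8:8661193-8661492 (minus strand) for Efnb2. Capitals mark matches, on either strand, to the TEAD motif GGAATG, bound by the partners of YAP1, the AP-1 motif TGANTCA, the cyclic AMP response element TGACGTCA and the GC box GGGCGG.
Efnb1: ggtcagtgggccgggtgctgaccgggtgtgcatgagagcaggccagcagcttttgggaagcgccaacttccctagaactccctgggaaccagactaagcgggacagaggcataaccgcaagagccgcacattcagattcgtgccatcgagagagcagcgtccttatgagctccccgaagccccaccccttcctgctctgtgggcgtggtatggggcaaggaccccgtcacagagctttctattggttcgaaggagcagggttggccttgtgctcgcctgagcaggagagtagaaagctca
Efnb2: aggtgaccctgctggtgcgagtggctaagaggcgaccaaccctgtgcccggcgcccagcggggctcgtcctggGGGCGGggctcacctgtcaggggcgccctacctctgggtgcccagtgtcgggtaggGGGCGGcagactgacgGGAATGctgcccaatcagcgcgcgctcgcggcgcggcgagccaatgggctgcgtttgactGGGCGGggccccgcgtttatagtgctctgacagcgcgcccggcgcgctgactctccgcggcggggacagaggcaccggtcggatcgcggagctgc
The Efnb1 window held none of these motifs, with 59.7% G and C bases and 14 CpG pairs. The Efnb2 window held 1 TEAD motif and 3 GC boxes, with 72.3% G and C and 35 CpG pairs, beside a median of 52.7% and 7 over all windows. Among windows of all genes tested, 12.6% held the TEAD motif, 5.55% the AP-1 motif, 2.90% the cyclic AMP response element and 60.9% a GC box. Windows were found for 53 of the 61 genes matched by name, Unc50 among them. Without Unc50 there were 68 windows, and among these the shares were 11.8%, 4.41%, 1.47% and 70.6%. A match is a description of the letters and not a bound site.

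Ephrin-A genes encode ligands that are anchored to the membrane by a lipid and bind mainly EphA receptors. Efna5 (chr17:62604184-62881317), known for its graded expression in the developing visual system, had 15.3, 14.6 and 18.4 CPM at pHe6.6 and 30.7, 47.8 and 48.2 CPM at pHe7.4. It was higher in each pHe7.4 library, with pHe7.4 replicate A below the other two (1.39 ± 0.19, adjusted p = 0.00113). Efna1, which is induced by inflammatory cytokines in endothelium, had 2.41, 3.18 and 3.04 CPM at pHe6.6 and 6.42, 5.56 and 5.56 CPM at pHe7.4 (1.02 ± 0.16, adjusted p = 0.00157). Efna4 had 2.58, 3.16 and 3.28 CPM at pHe6.6 and 6.98, 6.13 and 5.74 CPM at pHe7.4 (1.06 ± 0.16, adjusted p = 0.00113). Neither gene's groups overlapped. These 2 genes lie on either side of Efna3 on the minus strand of chromosome 3 (Efna1 at chr3:89271733-89281142, Efna3 at chr3:89313899-89322965, Efna4 at chr3:89333390-89338028). Efna3, between them, did not pass the test and its groups overlapped (-0.06 ± 0.40, adjusted p = 0.902). Exons of Efna3 and Efna4 overlap antisense transcripts over 14.1% and 10.5% of their length, and those transcripts reached at most 0.277 CPM. Efna2 did not pass either (-0.40 ± 0.17, adjusted p = 0.0766). In the class sum, Efna2 was the largest part at pHe6.6 (33.0 to 43.0%) and made up 15.4 to 17.4% at pHe7.4, where Efna5 made up 39.7 to 52.3%.

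Eph receptors were also mostly higher at pHe7.4. Of 10 receptors, 6 were higher at pHe7.4, 2 at pHe6.6 and 2 missed the threshold (median log2 fold change 1.32). Ephb1 is among the 6 and could only be called towards pHe7.4, as given above. All 5 EphA receptors changed, 4 of them towards pHe7.4. Epha4, the receptor that binds ephrins of both classes, had 11.7, 15.1 and 14.1 CPM in pHe6.6 replicates A, B and C and 40.0, 35.8 and 42.9 CPM in pHe7.4 replicates A, B and C (1.53 ± 0.11, adjusted p = 5.28e-05, chr1:77367185-77515088). The replicates differed little beside the distance between the groups. Epha7, best known from the developing cortex, was low at pHe6.6 with 0.678, 0.459 and 0.693 CPM and had 3.17, 3.56 and 3.34 CPM at pHe7.4 (2.46 ± 0.23, adjusted p = 0.000128). Epha2, an epithelial receptor for ephrin-A1, had 26.6, 62.4 and 51.5 CPM at pHe6.6 and 92.4, 106 and 105 CPM at pHe7.4 (1.11 ± 0.30, adjusted p = 0.0236). The pHe6.6 replicates were widely spread, with replicate A lowest, and the groups did not overlap. Without that library the change was 0.82 (adjusted p = 0.00131), whereas without pHe6.6 replicate C or any single pHe7.4 library the adjusted p of edgeR's test was 0.0589 to 0.0645. Epha1, also an epithelial receptor, had 3.22, 7.46 and 6.90 CPM at pHe6.6 and 21.2, 27.5 and 27.1 CPM at pHe7.4, again lowest in pHe6.6 replicate A (2.10 ± 0.30, adjusted p = 0.00166, and 1.81 without pHe6.6 replicate A). Its exons share 236 bases (6.01%) with Zyx on the opposite strand, which had 259 to 338 CPM at pHe6.6 and 656 to 697 CPM at pHe7.4. The strand setting of the counting is not given in the sources used here, so reads of Zyx in the shared bases cannot be told apart from those of Epha1.

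Epha3 (chr16:63543534-63864175) was the exception among EphA receptors. It encodes a receptor for ephrin-A5 that is known from mesenchymal and stromal cells, and it was higher at pHe6.6, with 70.7, 60.9 and 58.0 CPM there and 37.3, 28.7 and 25.4 CPM at pHe7.4. No pHe7.4 library reached the level of any pHe6.6 library (-1.05 ± 0.15, 2.07-fold higher at pHe6.6, adjusted p = 0.00110). The make-up of the EphA class shifted accordingly. Its sum was 20.6 ± 4.05 RPKM at pHe6.6 and 36.8 ± 1.85 RPKM at pHe7.4 (n = 3 each). Epha3 made up 50.3, 29.0 and 31.4% of it in pHe6.6 replicates A, B and C and 7.69 to 12.3% at pHe7.4, while Epha1 made up 5.07 to 8.26% and 15.5 to 18.5%. Epha2 was the largest part in every library but pHe6.6 replicate A, where Epha3 was. The Epha3 promoter window (RefSeq, GRCm38.p6, chr16:63864126-63864425, minus strand) is shown as that of the EphA gene that moved against the others, with the same motifs in capitals.
Epha3: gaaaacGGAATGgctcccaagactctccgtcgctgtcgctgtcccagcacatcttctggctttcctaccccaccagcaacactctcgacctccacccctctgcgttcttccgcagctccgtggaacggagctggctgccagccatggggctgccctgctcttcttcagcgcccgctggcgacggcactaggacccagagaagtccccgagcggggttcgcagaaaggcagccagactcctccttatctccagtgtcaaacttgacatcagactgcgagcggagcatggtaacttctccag
It held 1 TEAD motif, which lies near its 5′ end, and none of the other motifs, with 60.7% G and C and 18 CpG pairs.

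EphB receptors bind mainly ephrin-B, and they moved in both directions. Ephb1 had 0.0678, 0.459 and 0.331 CPM at pHe6.6, of which the value of replicate A lies under the level of 3 counts, and 1.56, 3.12 and 3.84 CPM at pHe7.4. It had the largest fold change among Eph receptors, from a low level (3.26 ± 0.56, adjusted p = 0.00262, and 2.82 without pHe6.6 replicate A, adjusted p = 0.00322). Ephb6, which lacks kinase activity, had 3.49, 4.10 and 4.46 CPM at pHe6.6 and 20.0, 13.1 and 16.9 CPM at pHe7.4 (2.05 ± 0.18, adjusted p = 9.96e-05). The groups of both genes were clearly separate. Ephb2, with the most counts of the family, had 226, 218 and 212 CPM at pHe6.6 and 187, 166 and 180 CPM at pHe7.4, a smaller difference towards pHe6.6 that still left no overlap (-0.30 ± 0.07, adjusted p = 0.00754). Ephb4, the receptor of ephrin-B2 on veins, and Ephb3 did not pass the test (-0.17 ± 0.07 and 0.06 ± 0.07). The class sum was 59.7 ± 2.15 RPKM at pHe6.6 and 56.7 ± 2.88 RPKM at pHe7.4, and Ephb4 was its largest part in every library, at 50.9 to 58.6%. The sum of ephrin-B ligands differed between the groups while the ranges of their main receptors' sum (58.3 to 62.2 RPKM and 53.4 to 58.7 RPKM) overlapped. The plot of ephrins and Eph receptors gives each library's level.

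**Figure D2:**
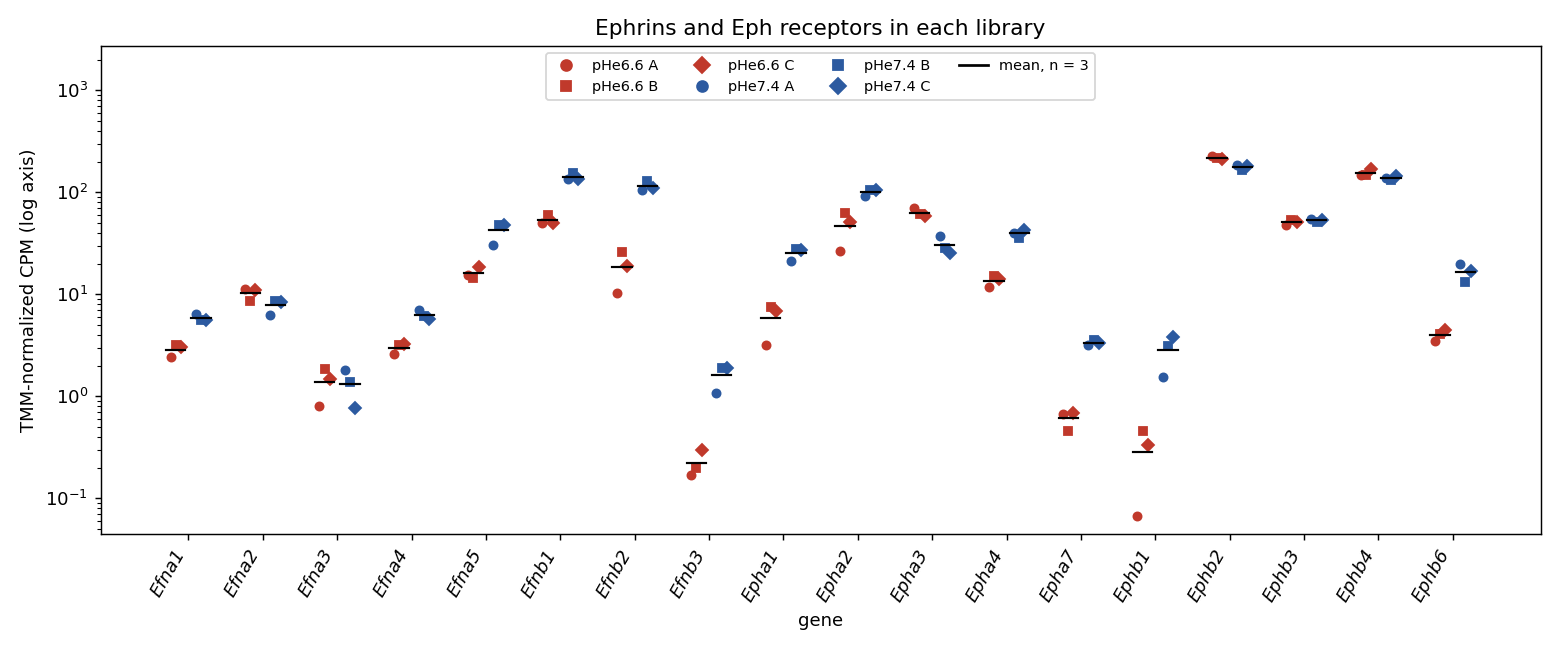
TMM-normalized CPM (log axis) of 8 ephrins and 10 Eph receptors in each of the 6 libraries, red for pHe6.6 and blue for pHe7.4, with shapes for replicates A, B and C and a bar for the mean of 3. Efnb1, Efnb2 and Efna5 lie higher in every pHe7.4 library, Epha3 lies lower there, and pHe6.6 replicate A lies lowest for Efnb2, Epha1 and Epha2.

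The semaphorins showed no common direction. Of 19 genes, 4 were higher at pHe7.4, 6 at pHe6.6 and 9 missed the threshold, and the share that changed (52.6%) was near that of all genes. Among the 7 secreted class 3 semaphorins only Sema3g and Sema3b passed edgeR's test. Sema3b (chr9:107597674-107609229), a ligand of neuropilins that inhibits the growth of tumour cells in culture, had 18.8, 18.6 and 18.2 CPM in pHe6.6 replicates A, B and C and 5.84, 7.09 and 7.16 CPM in pHe7.4 replicates A, B and C. Its pHe6.6 replicates hardly differed, and it was 2.77-fold higher at pHe6.6 (-1.47 ± 0.11, adjusted p = 4.56e-05). Sema3f, its neighbour on chromosome 9 (chr9:107681500-107710475), did not pass the test (0.23 ± 0.19). Sema3g, a ligand of neuropilin-2 known from arterial endothelium, had 0.983, 1.15 and 1.02 CPM at pHe6.6 and 5.14, 3.94 and 3.84 CPM at pHe7.4, with no overlap (2.03 ± 0.20, adjusted p = 0.000172). Sema3a, the founding axon repellent of the class, had 4.58, 14.3 and 14.7 CPM at pHe6.6 and 17.8, 36.2 and 37.6 CPM at pHe7.4. It was higher in each pHe7.4 library, but replicate A was lowest in both groups and the test was missed (1.44 ± 0.50, adjusted p = 0.0540). Without pHe6.6 replicate A it passed (adjusted p = 0.0284), as it did with DESeq2 (adjusted p = 0.0297) and limma-voom (adjusted p = 0.0311). By edgeR it also passed with the replicate letter as a block (adjusted p = 0.0011) and with a filter of 1 CPM in 3 libraries (adjusted p = 0.0459). It missed with upper-quartile factors (adjusted p = 0.0520), without a filter on low counts (adjusted p = 0.182) and without any other single library (adjusted p from 0.0513 to 0.130). Sema3c, Sema3d and Sema3e did not pass edgeR's test, with log2 fold changes from -0.32 to 0.54, but each passed under some alternative. DESeq2 called Sema3d higher at pHe7.4 (adjusted p = 0.0251), as did edgeR without pHe7.4 replicate A (adjusted p = 0.00218). Sema3c was called higher at pHe7.4 when pHe6.6 replicate B was left out (adjusted p = 0.00113), and Sema3e, towards pHe6.6, without pHe6.6 replicate C (adjusted p = 0.0167), without a filter on low counts (adjusted p = 0.0371) and with the replicate letter as a block (adjusted p = 0.0498). The class sum was 22.2 ± 2.95 RPKM at pHe6.6 and 24.6 ± 3.5 RPKM at pHe7.4, with Sema3f as its largest part (39.1 to 48.1%) in every library. The part of Sema3b went from 15.7 to 20.7% at pHe6.6 to 5.56 to 5.94% at pHe7.4.

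Of the membrane-bound semaphorins, 2 of 4 in class 6 were higher at pHe6.6 while the other two missed the threshold. In class 4, 2 genes were higher at pHe7.4, 3 at pHe6.6 and 1 did not pass. Sema6c had 11.2, 9.38 and 10.6 CPM at pHe6.6 and 4.96, 5.18 and 4.91 CPM at pHe7.4 (-1.05 ± 0.11, adjusted p = 0.000271, chr3:95160457-95174024). Sema6b fell by less (-0.75 ± 0.11, adjusted p = 0.000842), and both genes left no overlap between the groups. Sema6d, a ligand of plexin A1, had the most counts of the family, with 106, 75.7 and 106 CPM at pHe6.6 and 68.6, 64.1 and 93.1 CPM at pHe7.4. Its groups overlapped and it did not pass (-0.35 ± 0.18, adjusted p = 0.155), nor did Sema6a (-0.04 ± 0.17). In class 4, Sema4f had the largest fold change of all guidance genes, with 0.271, 0.459 and 0.121 CPM at pHe6.6 against 6.42, 2.67 and 3.22 CPM at pHe7.4 (3.83 ± 0.52, adjusted p = 0.000890). Each pHe7.4 library was well above the pHe6.6 libraries, where none exceeded 0.459 CPM, and pHe7.4 replicate A was the highest. Sema4f could only be called in that direction, as given above. Sema4b had 23.7, 28.1 and 35.7 CPM at pHe6.6 and 38.1, 55.9 and 58.4 CPM at pHe7.4 (0.80 ± 0.21, adjusted p = 0.0171). The gap between the highest pHe6.6 and the lowest pHe7.4 library was small, and the call was lost without pHe7.4 replicate B (adjusted p = 0.0619) as well as without replicate C of that group (adjusted p = 0.0560). Sema4g (-0.60 ± 0.15), Sema4a (-0.40 ± 0.14) and Sema4c (-0.30 ± 0.07) were higher at pHe6.6, Sema4a at an adjusted p of 0.0463 by edgeR. Its call was lost with upper-quartile factors (adjusted p = 0.0611), without a filter on low counts (adjusted p = 0.0612), with the replicate letter as a block (adjusted p = 0.0580) and without any single library but pHe6.6 replicate A (adjusted p from 0.0759 to 0.156). Sema4d, the immune semaphorin that signals through plexin B1, did not pass (0.44 ± 0.37), nor did Sema5a (0.49 ± 0.24). Sema7a, a lipid-anchored ligand of plexin C1 and of integrins that is known from fibrosis of the lung, had 2.92, 5.71 and 4.85 CPM at pHe6.6 and 18.2, 7.82 and 13.3 CPM at pHe7.4. All pHe7.4 libraries were above all pHe6.6 libraries, but replicate B of pHe7.4 lay near them (1.54 ± 0.36, adjusted p = 0.0125, and 1.31 without pHe6.6 replicate A). The call was lost without a filter on low counts (adjusted p = 0.0689) and with the replicate letter as a block (adjusted p = 0.0535). Per length, the highest semaphorin levels at pHe6.6 and pHe7.4 were those of Sema3f (9.41 and 11 RPKM), Sema4c (9.79 and 7.96 RPKM), Sema6d (9.08 and 7.13 RPKM) and Sema4b (5.16 and 9 RPKM).

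Among the receptors of semaphorins, 3 plexins or neuropilins were higher at pHe7.4, 3 at pHe6.6 and 4 did not pass. Plxna4 (chr6:32144268-32588192), the class A plexin that carries the Sema3a signal in sensory neurons, had 6.44, 15.1 and 16.1 CPM in pHe6.6 replicates A, B and C and 87.8, 65.4 and 82.4 CPM in pHe7.4 replicates A, B and C. It was 6.25-fold higher at pHe7.4, lowest in pHe6.6 replicate A (2.64 ± 0.35, adjusted p = 0.00154, and 2.33 without that library, adjusted p = 6.82e-05). Plxna1, the most abundant class A plexin, was lower at pHe7.4 (-0.54 ± 0.09, adjusted p = 0.00163), and 10.7% of its exons overlap an antisense transcript with at most 0.781 CPM. With both changes, Plxna4 made up 1.06 to 2.84% of the class A sum at pHe6.6 and 14.7 to 16.9% at pHe7.4, while Plxna1 went from 88.8 to 90.3% to 73.2 to 75.9%. Class B showed the same pattern of a minor member that rose and a major one that fell. Plxnb1, a receptor of Sema4d, had 5.25, 13.5 and 10.2 CPM at pHe6.6 and 35.0, 30.4 and 37.7 CPM at pHe7.4 (1.82 ± 0.32, adjusted p = 0.00451, and 1.52 without pHe6.6 replicate A, the lowest library). Plxnb2, with the most counts of the family, had 794, 815 and 818 CPM at pHe6.6 and 585, 556 and 612 CPM at pHe7.4 (-0.47 ± 0.07, adjusted p = 0.00115). Its replicates lay close together, and it still made up 95.3 to 95.8% of the class B sum at pHe7.4 (98.7 to 99.5% at pHe6.6). Plxnc1, the receptor of Sema7a, was higher at pHe6.6 (-0.64 ± 0.12, adjusted p = 0.00376), the direction opposite to its ligand. Nrp2 was higher at pHe7.4 (0.44 ± 0.09, adjusted p = 0.00419), whereas Nrp1, Plxna2, Plxna3 and Plxnd1 did not pass, with log2 fold changes from -0.13 to 0.0059. The plot of semaphorins, plexins and neuropilins gives each library's level.

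**Figure D3:**
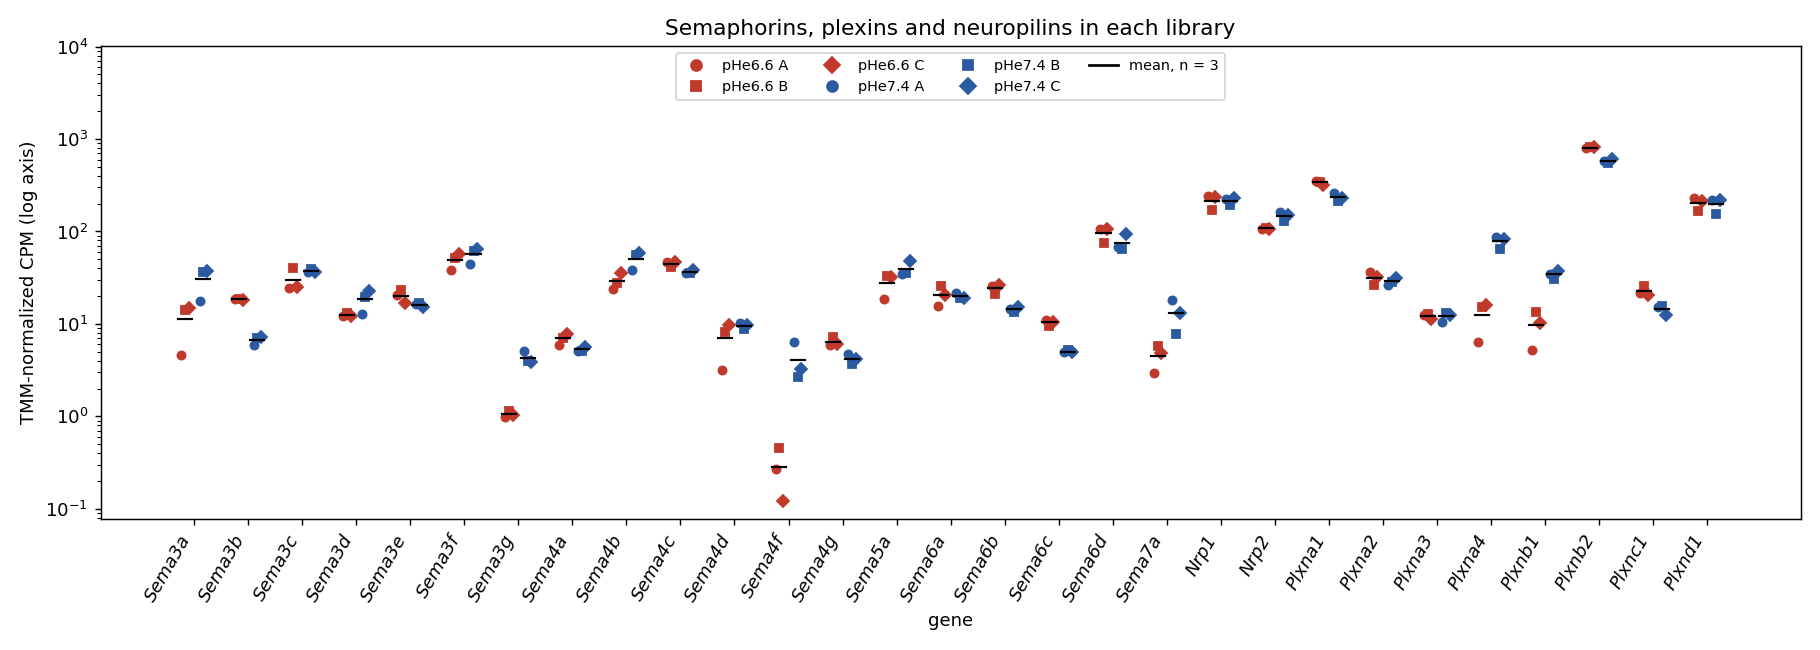
TMM-normalized CPM (log axis) of 19 semaphorins, 2 neuropilins and 8 plexins in each library, red for pHe6.6 and blue for pHe7.4, with shapes for replicates A, B and C and a bar for the mean of 3. Plxna4, Plxnb1, Sema3g and Sema4f are higher in every pHe7.4 library, Sema3b and Sema6c are lower, and Nrp1 and Plxnd1 overlap.

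Slit3 was the guidance gene with the highest level. It encodes a secreted Robo ligand that mesenchymal cells are known to make, and it had 2815, 2265 and 2438 CPM in pHe6.6 replicates A, B and C and 1546, 1260 and 1536 CPM in pHe7.4 replicates A, B and C, or 413 and 238 RPKM on average. The lowest pHe6.6 library lay well above the highest pHe7.4 library (-0.79 ± 0.12, 1.73-fold higher at pHe6.6, adjusted p = 0.00131). Slit1, which is largely neural, moved the same way from a low level, with 2.95, 4.25 and 3.04 CPM at pHe6.6 and 0.957, 0.381 and 0.562 CPM at pHe7.4 (-2.40 ± 0.34, adjusted p = 0.000907). Slit2 moved the opposite way (0.51 ± 0.09, adjusted p = 0.00278), from 64.3 ± 3.39 CPM to 91.4 ± 10.4 CPM (mean ± SD, n = 3). Slit3 held 98.4 to 99.3% of the summed RPKM of the Slits in every library, and the sum was 416 ± 46.5 RPKM at pHe6.6 and 242 ± 27.2 RPKM at pHe7.4. Both Slit2 (chr5:47983138-48307733) and Slit3 (chr11:35121224-35708507) carry in an intron, on their own strand, a copy of the same microRNA, miR-218, which is known to target Robo1 and Robo2. Its mature sequence (RefSeq, GRCm38.p6, chr5:48223966-48223986 in Slit2 and chr11:35616840-35616860 in Slit3, both plus strand) is shown with the seed, bases 2 to 8, in capitals.
mmu-miR-218-5p: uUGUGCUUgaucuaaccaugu
The microRNA itself was not measured in these libraries of polyadenylated RNA.

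The Robo receptors were low beside their ligand, with a class sum of 1.88 ± 0.243 RPKM at pHe6.6 and 2.70 ± 0.576 RPKM at pHe7.4. Robo4, the endothelial member, had 0.136, 0.803 and 0.663 CPM at pHe6.6 and 3.53, 1.30 and 2.10 CPM at pHe7.4 (2.09 ± 0.58, adjusted p = 0.0205). All pHe7.4 libraries were above all pHe6.6 libraries, both groups were widely spread, and the change was 1.66 without pHe6.6 replicate A (adjusted p = 0.0217). The call was lost without pHe6.6 replicate C, pHe7.4 replicate A or pHe7.4 replicate C, with adjusted p of 0.0558, 0.0658 and 0.0502. It was also lost with the replicate letter as a block (adjusted p = 0.0735) and without a filter on low counts (adjusted p = 0.0547). Most endothelial markers were in the same range and rose with it (9 of 11), as for Cdh5 at 0.813 to 1.86 CPM at pHe6.6 and 4.74 to 11.8 CPM at pHe7.4, and Pecam1 at 1.19 to 2.62 and 3.94 to 8.97 CPM. Among these 9, Cldn5 and Erg could only be called in that direction, as given above. Tek went the other way, with 7.26 to 10.1 and 3.28 to 4.70 CPM (-1.16 ± 0.18, adjusted p = 0.00149), and Vwf did not pass edgeR's test (-0.11 ± 0.27, adjusted p = 0.736). Whether the change in Robo4 came from endothelial cells was not tested. Robo1, the main receptor by level, Robo2 and Robo3, the neighbour of Robo4, did not pass the test (0.39 ± 0.15, -0.49 ± 0.32 and 0.80 ± 0.32, adjusted p of 0.0632, 0.237 and 0.0679 by edgeR). Robo1 was called higher at pHe7.4 by DESeq2 (adjusted p = 0.0415), and by edgeR with upper-quartile factors (adjusted p = 0.0445) and without replicate B of either group (adjusted p = 0.0219 for pHe6.6 and 0.0185 for pHe7.4).

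All 3 netrins tested were higher at pHe6.6. Ntn4 (chr10:93640681-93747207), a netrin of basement membranes that binds laminin, had 142, 217 and 144 CPM in pHe6.6 replicates A, B and C and 64.6, 70.3 and 56.1 CPM in pHe7.4 replicates A, B and C. Replicate B was the highest of its group at both pHe values, and the groups did not overlap (-1.40 ± 0.18, 2.64-fold higher at pHe6.6, adjusted p = 0.00104). Ntn1, the classic attractant, fell by less (-0.49 ± 0.12, adjusted p = 0.0102). Ntng2, which is anchored to the membrane and binds no Unc5 receptor, also fell (-0.90 ± 0.17, adjusted p = 0.00331), and 14% of its exon bases are shared on the same strand with the transcript 6530402F18Rik, which had 4.16 to 4.71 CPM at pHe6.6 and 5.82 to 7.78 CPM at pHe7.4. The netrin sum was 54.7 ± 12.5 RPKM at pHe6.6 and 23.7 ± 2.51 RPKM at pHe7.4, of which Ntn4 made up 71.1 to 84.1%. The Ntn4 promoter window (RefSeq, GRCm38.p6, chr10:93640799-93641098, plus strand) is shown as that of the netrin that accounts for most of this sum.
Ntn4: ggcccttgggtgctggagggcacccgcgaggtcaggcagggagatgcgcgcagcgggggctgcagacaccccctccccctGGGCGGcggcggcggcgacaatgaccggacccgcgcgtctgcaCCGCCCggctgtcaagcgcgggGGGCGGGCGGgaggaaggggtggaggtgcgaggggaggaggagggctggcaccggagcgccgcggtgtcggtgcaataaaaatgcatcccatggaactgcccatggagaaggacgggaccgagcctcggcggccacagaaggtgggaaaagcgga
It held 4 GC boxes, 2 of which overlap and 1 of which is on the opposite strand, and none of the other motifs, with 72.0% G and C and 31 CpG pairs.

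The Unc5 receptors moved against the netrins in part. Unc5b, the vascular member and the main one here, had 265, 394 and 276 CPM at pHe6.6 and 594, 553 and 512 CPM at pHe7.4 (0.83 ± 0.16, adjusted p = 0.00398, chr10:60762593-60831581). Its groups did not overlap. Unc5c had 1.63, 4.16 and 1.84 CPM at pHe6.6 and 10.8, 10.7 and 12.1 CPM at pHe7.4, from a low level with pHe6.6 replicate B above the other two (2.13 ± 0.34, adjusted p = 0.00226, and 1.89 without pHe6.6 replicate A, adjusted p = 0.00320). Unc5a was higher at pHe6.6 (-0.39 ± 0.10, adjusted p = 0.0143), a call that was lost without pHe6.6 replicate C (adjusted p = 0.0545). The summed RPKM of the Unc5 receptors was 54.9 ± 11 at pHe6.6 and 92.6 ± 6.35 at pHe7.4, with 88.9 to 95.7% from Unc5b. Dcc, the attractive netrin receptor, had 0 counts in every library, which allows up to 0.0756 to 0.102 CPM. Neo1, which encodes the related receptor neogenin, had 172 to 187 CPM at pHe6.6 and 193 to 236 CPM at pHe7.4 (log2 fold change 0.25 ± 0.09, adjusted p = 0.0410).

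**Figure D4:**
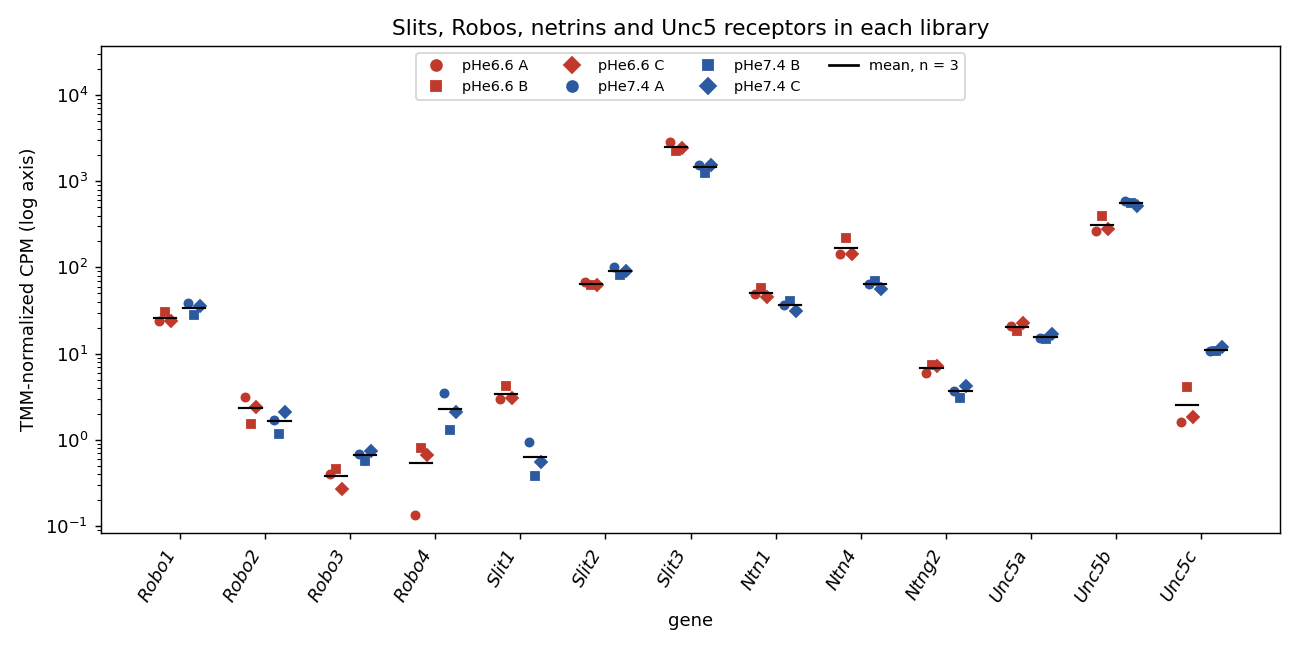
TMM-normalized CPM (log axis) of 3 Slits, 4 Robos, 3 netrins and 3 Unc5 receptors in each library, red for pHe6.6 and blue for pHe7.4, with shapes for replicates A, B and C and a bar for the mean of 3. Slit3 is the highest in all libraries, Slit3, Slit1 and the 3 netrins are lower at pHe7.4, and Unc5b and Unc5c are higher.

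The change within classes can be seen in their make-up per length. In EphA receptors, ephrin-B and class A plexins, a gene that was a minor part at pHe6.6 took a larger part at pHe7.4, namely Epha1, Efnb2 and Plxna4. Efnb2 made up 9.37, 17.8 and 16.0% of ephrin-B in pHe6.6 replicates A, B and C and 28.4 to 29.3% at pHe7.4. In the netrin sum, Ntn1 went from 13.2 to 16.7% to 23.8 to 25.0%. These parts are descriptions without a test of their own.

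**Figure D5:**
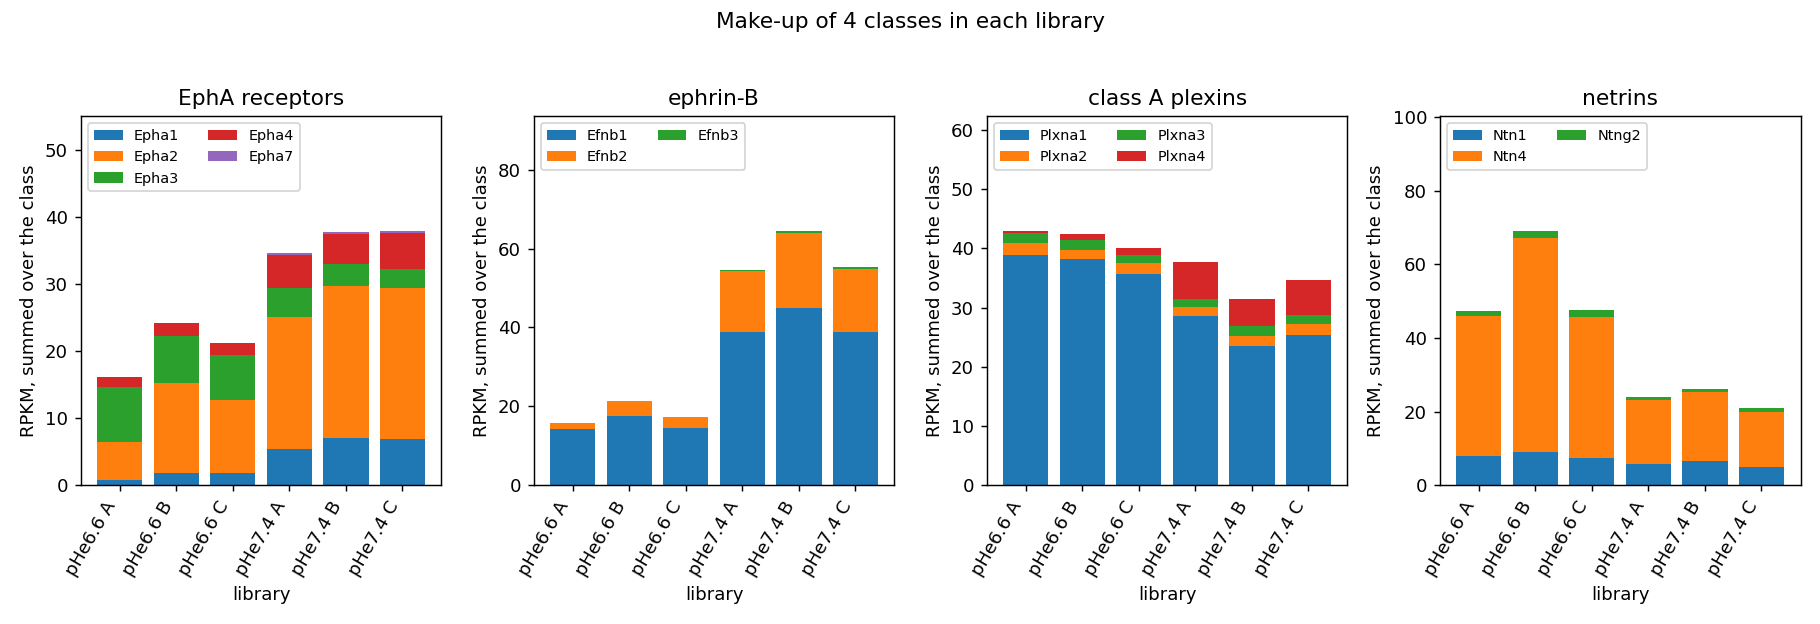
Summed level per length (RPKM, y axis) of EphA receptors, ephrin-B, class A plexins and netrins in each of the 6 libraries (x axis), with colours for the genes. The sums of ephrin-B and EphA receptors are higher at pHe7.4, that of netrins is lower, and the part of Plxna4 is 1.06 to 2.84% at pHe6.6 and 14.7 to 16.9% at pHe7.4.

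Of the genes that work with these receptors, 79 were tested, 25 co-receptors and membrane partners and 54 intracellular effectors. Of these, 29 were higher at pHe7.4, 17 at pHe6.6 and 33 missed the threshold, beside 25.9% and 26.4% of all genes tested (median log2 fold change 0.18). Co-receptors were more often higher at pHe7.4 (11) than at pHe6.6 (5), and 9 did not pass. Lrrc4c, the membrane ligand of netrin-G1, had the largest fold change (3.51 ± 0.41, 0.257 ± 0.166 CPM at pHe6.6, 3.04 ± 0.165 CPM at pHe7.4, adjusted p = 0.000379). It stayed under 0.5 CPM in all pHe6.6 libraries and met the filter on low counts through pHe7.4 alone. Lrrc4c could therefore only be called in that direction. Cntn2, an adhesion protein of axons (3.02 ± 0.40), and Flrt2, a membrane ligand of Unc5 receptors (1.99 ± 0.35, from 64.1 ± 24.9 to 255 ± 62.5 CPM), were higher at pHe7.4 too. Rgma, the ligand of neogenin, was higher at pHe6.6 (-1.30 ± 0.13, 46.6 ± 4.20 CPM at pHe6.6, 18.9 ± 3.12 CPM at pHe7.4). Among effectors, 18 were higher at pHe7.4, 12 at pHe6.6 and 24 did not pass. Dpysl5, of the collapsin response mediators downstream of semaphorins, was higher at pHe7.4 (3.28 ± 0.45, adjusted p = 0.00103). At pHe6.6, the actin-binding gene Ablim1 (-1.48 ± 0.08) and the GTPase gene Rras, a target of plexin signals (-1.42 ± 0.07, 163 ± 6.10 CPM at pHe6.6, 60.9 ± 3.76 CPM at pHe7.4), had the higher levels.

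Taking single libraries, pHe6.6 replicate A stood under 0.6 of the mean of replicates B and C in 9 of the 23 guidance genes that were higher at pHe7.4. These were Epha1, Epha2, Ephb1, Robo4, Efnb2, Unc5c, Plxna4, Plxnb1 and Sema7a, with ratios from 0.172 for Ephb1 to 0.552 for Sema7a. The share of all genes under this ratio was not computed, so the count is no trait particular to guidance genes. The summed mesothelial markers without Aldh1a2 were low in the same library, as given above, and the sums of acinar, ductal and islet genes were as well. All 9 genes stayed past the threshold without that library, with log2 fold changes from 0.82 for Epha2 to 2.82 for Ephb1. For the other 14 genes the ratio ran from 0.675 for Efnb3 to 1.18 for Epha7.

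A further 9 genes of these families lay under the filter of 0.5 CPM in at least 2 libraries and were not tested. They were Epha5, Epha6, Epha8, Epha10, Plxnb3, Sema5b, Ntng1, Ntn5 and Unc5d, and none had more than 12 counts (0.355 CPM) in a library. Epha6 and Ntn5 had no count in any library, which allows up to 0.0756 to 0.102 CPM.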

How the data were processed

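RNA of 6 cultures of murine PSCs was extracted after 120 h, enriched for polyadenylated RNA and prepared with a directional kit. Reads were aligned by the authors to mm10 with HISAT2 2.2.1 and counted with featureCounts 2.0.1 by Ensembl gene. The deposited values are raw counts. The annotation release and strand setting are not given in the sources used here. A deposited comparison by the authors, made with limma 3.50.1, holds raw and adjusted p-values, a log2 fold change, the mean level as log2 CPM and limma's t statistic, a score. Only its gene IDs and names were used.

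Tests were run with edgeR 4.0.16, DESeq2 1.42.0 and limma 3.58.1 under R 4.3.3, tables in Python 3.11.15 with pandas 2.3.3, and plots with matplotlib 3.10.9. The 15197 genes of 49671 that reached 0.5 CPM in 2 or more libraries were tested, and they held 99.9% or more of each library's counts. TMM factors ran from 0.927 to 1.09, and edgeR's common biological coefficient of variation came to 0.140. edgeR's quasi-likelihood test (robust, no covariate) compared the 2 pHe groups, and p-values were adjusted after Benjamini-Hochberg across the tested genes. A standard error is the size of the log2 fold change over the square root of F. The median log2 fold change of all genes was 0.011 with TMM, 0.043 with upper-quartile factors and 0.0088 with DESeq2. Gene symbols (for 49326 IDs), positions, exon lengths for RPKM and overlaps come from GENCODE vM21 on GRCm38, the assembly of mm10.

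Levels in every library are given for genes that changed by over 1 on the log2 scale, for the gene with the most counts of each family, and for genes with a log2 fold change over 0.58 whose call changes when 1 library is left out. Of the lists of co-receptors and effectors, the 4 genes that changed most in each direction with a mean of at least 1 CPM are named, apart from any that is not reported here. Other genes were named after their values were seen. The genes, lists and cell type markers were chosen with earlier results of these data known. Alternatives were upper-quartile factors, DESeq2, limma-voom, no filter, a filter of 1 CPM in 3 libraries, a fold change threshold, the replicate letter as a block, and the fit without each single library.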

Additional observations from a re-analysis of the deposited data

How the results depend on the processing

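Of 40 guidance genes that changed, 34 kept call and direction under every alternative, 6 lost the call under at least 1 (Epha2, Robo4, Sema4a, Sema4b, Sema7a and Unc5a) and 0 turned. Of 20 that did not pass, 9 passed under at least 1 (Efna2, Robo1, Sema3a, Sema3c, Sema3d, Sema3e, Sema3f, Sema5a and Sema6d). The count of genes higher at pHe7.4 ran from 19 (no filter) to 26 (DESeq2) and was 20 to 25 when single libraries were left out. With an absolute log2 fold change over 0.58 as well, 21 were higher at pHe7.4 against 10 at pHe6.6, beside 29.8% of all genes in either direction. Without a filter on low counts, 1 Slit or Robo and 2 semaphorins were higher at pHe7.4, against 1 ephrin at pHe6.6. When single libraries were left out, 1 to 3 Slits and Robos were higher at pHe7.4, against 0 to 1 ephrins at pHe6.6. Among genes that did not pass, the direction was not settled for Efna3 (log2 fold change from -0.36 to 0.21 over the left-out libraries), Nrp1 (-0.14 to 0.0935, and -0.0073 without a filter), Plxna3 (-0.0801 to 0.0817, and 0.0215 with upper-quartile factors), Plxnd1 (-0.16 to 0.10) and Sema6a (-0.21 to 0.15). The cause of these moves was not tested. With the replicate letter as a block, 24 genes were higher at pHe7.4, 18 at pHe6.6 and 1 Slit or Robo at pHe7.4. Same-letter libraries deviated together in C only (correlation across genes 0.23, against -0.06 for A and -0.00037 for B), and 1 of 3 libraries in each group correlated best with its own letter, so the letters were not taken as pairs. With 3 libraries per group, levels of a few counts, as for Ephb1, Efnb3 and Robo4 at pHe6.6, limit the precision of fold changes.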
